A study of Mus musculus with 8 samples.

Results

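The 10 genes described here encode the T cell receptor complex and its coreceptors: the signaling chains Cd3d, Cd3e and Cd3g, the constant regions of the receptor chains (Trac for alpha, Trbc1 and Trbc2 for beta, Trdc for delta), and the coreceptors Cd8a, Cd8b1 and Cd4. They were taken by name from the 20127 genes listed in the all-cell count tables of either genotype, in 29631 cells. Of the 10 genes, 9 were listed in both tables. Cd8a was listed only in the wild-type table.

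The study compared gray matter of the frontal cortex with white matter (optic tract, medial lemniscus and corpus callosum) of 24-month-old male mice, and asked with Rag1-/- mice, which cannot rearrange antigen receptor genes, what the white matter of aged mice is like without mature lymphocytes. Live cells (SYTOX Blue negative) were dissociated with actinomycin D and profiled by 3' single-cell RNA sequencing, which counts unique molecular identifiers (UMIs), 1 per captured transcript. There were 2 gray and 2 white matter libraries from wild-type C57BL/6 mice, and 1 gray and 3 white matter libraries from Rag1-/- mice. The Rag1-/- strain is labeled NOD.129S7(B6)-Rag-1tm1Mom/J, whereas the methods of the study name a B6.129S7 line, and the background of these mice was not resolved here.

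Wild-type gray and white matter libraries of the same number came from the same pool of mice, as did the first Rag1-/- gray and white matter libraries, and the other Rag1-/- white matter libraries came from single mice. In the Rag1-/- experiment, white matter library 1 was the only white matter library of batch 1 and libraries 2 and 3 were batch 2, so that library and its batch cannot be told apart. The wild-type library numbers are also batch numbers in the labels, so mouse pool and batch cannot be told apart there. Genotype coincided with the experiment and with the version of the read counting software, so these cannot be told apart. No lymphocyte gate was applied, and a mouse that lacks Rag1 lacks B cells as well as T cells.

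A T cell recognizes antigen through a pair of variable receptor chains, alpha with beta or gamma with delta, that cannot signal alone and depend on the Cd3 chains for surface expression and signaling. CD8, a dimer of Cd8a and Cd8b1, binds class I MHC and marks most cytotoxic T cells, and CD4 binds class II MHC and marks helper T cells. Constant regions can also be transcribed from an unrearranged, germline locus without yielding a receptor, and natural killer (NK) cells, which carry Nkg7 and Klrb1c (NK1.1), develop without Rag1.

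Because 3' tags of Trbc1 and Trbc2 are told apart only by the end of the transcript, the coding bases downstream of their first coding exon are shown, read from the GENCODE M21 transcripts (GRCm38, the build of the tables), with the bases that differ in capitals. Trbc1 lies at chr6:41538218-41539881 and Trbc2 at chr6:41546730-41548352, both on the plus strand, 6848 bases apart.
Trbc1: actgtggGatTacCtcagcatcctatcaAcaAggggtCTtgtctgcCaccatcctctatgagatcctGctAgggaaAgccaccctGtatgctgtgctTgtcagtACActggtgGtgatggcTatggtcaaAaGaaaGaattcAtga
Trbc2: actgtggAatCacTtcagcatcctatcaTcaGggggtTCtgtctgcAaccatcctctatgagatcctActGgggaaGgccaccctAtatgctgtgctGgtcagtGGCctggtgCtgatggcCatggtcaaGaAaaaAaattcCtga
The first coding exon (375 bases) differed at 1 position (C260A, Trbc1 base first, counted from the first coding base), whereas these 146 bases differed at 22, an identity of 84.9%. The 216 bases of Trbc1 and the 171 bases of Trbc2 after the stop codon shared none of their 30-base words, so tags from the 3' end can be assigned to 1 of the pair.

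The libraries held 584 to 7631 cells and 4645054 to 57899352 UMIs, with a median of 6435 to 10375 UMIs per cell. The deepest cell held 19911 to 19979 UMIs in the Rag1-/- libraries and 23094 to 49480 in the wild-type libraries. Each pair of libraries shared between 0 and 15 cell barcodes, none of them with Cd3 UMIs in both. The authors kept genes found in at least 3 cells. Only 2 to 342 genes per library were found in 1 or 2 cells, against 498 to 1323 in 3 to 5 cells, a pattern of a filter set per library, so a gene listed at 0 may have been present in 1 or 2 cells. Rag1 itself was counted at 0 and 3 UMIs in wild-type gray matter, 0 and 24 in wild-type white matter, 37 in Rag1-/- gray matter, and 108, 60 and 96 in Rag1-/- white matter. Its UMIs were more frequent in the libraries labeled Rag1-/- (edgeR log2 fold change in white matter 2.77 ± 0.79 (SE), adjusted p = 0.286), and 3' tags outside the deleted part do not check the deletion.

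Among the signaling chains, Cd3g (chr9:44969572-44980431, minus strand) was counted at 4.52 and 11.4 CPM (UMIs of the gene per 1e+06 UMIs of the library, over all its cells) in the wild-type gray matter libraries 1 and 2, and at 59.6 and 50.6 CPM in the white matter libraries 1 and 2. In Rag1-/- mice it was at 1.43 CPM in gray matter, and at 3.90, 1.06 and 0 CPM in the white matter libraries 1, 2 and 3. All wild-type white matter values lay above all other libraries, and every Rag1-/- value lay below every wild-type value. In such sums fewer cells of a type and less RNA per cell cannot be told apart. Cd3d (chr9:44981786-44987339, plus strand) was at 8.40 and 8.15 CPM in wild-type gray, 44.4 and 32.7 in wild-type white, 0 in Rag1-/- gray, and 0.570, 0 and 0.205 in Rag1-/- white matter. Cd3e (chr9:44998740-45009627, minus strand), the chain most used to mark T cells, was at 3.66 and 6.43 CPM in wild-type gray and 32.5 and 31.6 in wild-type white matter. In Rag1-/- mice Cd3e had UMIs only in white matter library 1, at 2.28 CPM (132 UMIs in 20 cells).

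Among the receptor chains, Trac (chr14:54220521-54224206, plus strand) was at 3.01 and 4.71 CPM in wild-type gray and 27.4 and 20.99 in wild-type white matter, but at 0.543 CPM in Rag1-/- gray and 0.0864, 0.257 and 0.0560 in Rag1-/- white matter. Trbc2 was at 5.17 and 11.2 CPM in wild-type gray and 70.03 and 50.3 in wild-type white matter, and was still at 4.68, 2.20 and 2.73 CPM in Rag1-/- white matter. Trbc1 was at 11.8 and 9.57 CPM in wild-type gray, 33.9 and 25.5 in wild-type white, and 1.93, 2.50 and 2.30 in Rag1-/- white matter. Both beta constant regions were thus detected in every library, and in Rag1-/- gray matter at 1.28 (Trbc1) and 0.775 CPM (Trbc2). Trdc (chr14:54142851-54148868, plus strand) was the one chain whose genotypes overlapped, at 0 and 0.152 CPM in wild-type gray, 0 and 0.437 in wild-type white, 0.620 in Rag1-/- gray, and 0.311, 0.771 and 0.280 in Rag1-/- white matter.

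Of the coreceptors, Cd8b1 (chr6:71322788-71337494, plus strand) was at 1.29 and 6.48 CPM in wild-type gray and 30.7 and 30.5 in wild-type white matter. In the Rag1-/- libraries it was present at 5 and 4 UMIs in white matter libraries 1 and 2 and at 0 in the remaining libraries, and each of these UMIs lay in a cell without Cd3. Cd8a (chr6:71373427-71379173, plus strand) was at 2.80 and 4.86 CPM in wild-type gray and 27.1 and 27.0 in wild-type white matter. Cd4 (chr6:124864692-124888221, minus strand) was scarce, at 0 and 1.92 CPM in wild-type gray, 2.02 and 1.55 in wild-type white, and 0.659 in Rag1-/- gray matter, and was listed at 0 in all 3 Rag1-/- white matter libraries. Gray and white matter of wild-type mice therefore overlapped for Cd4, unlike for the CD8 genes.

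**Figure D1:**
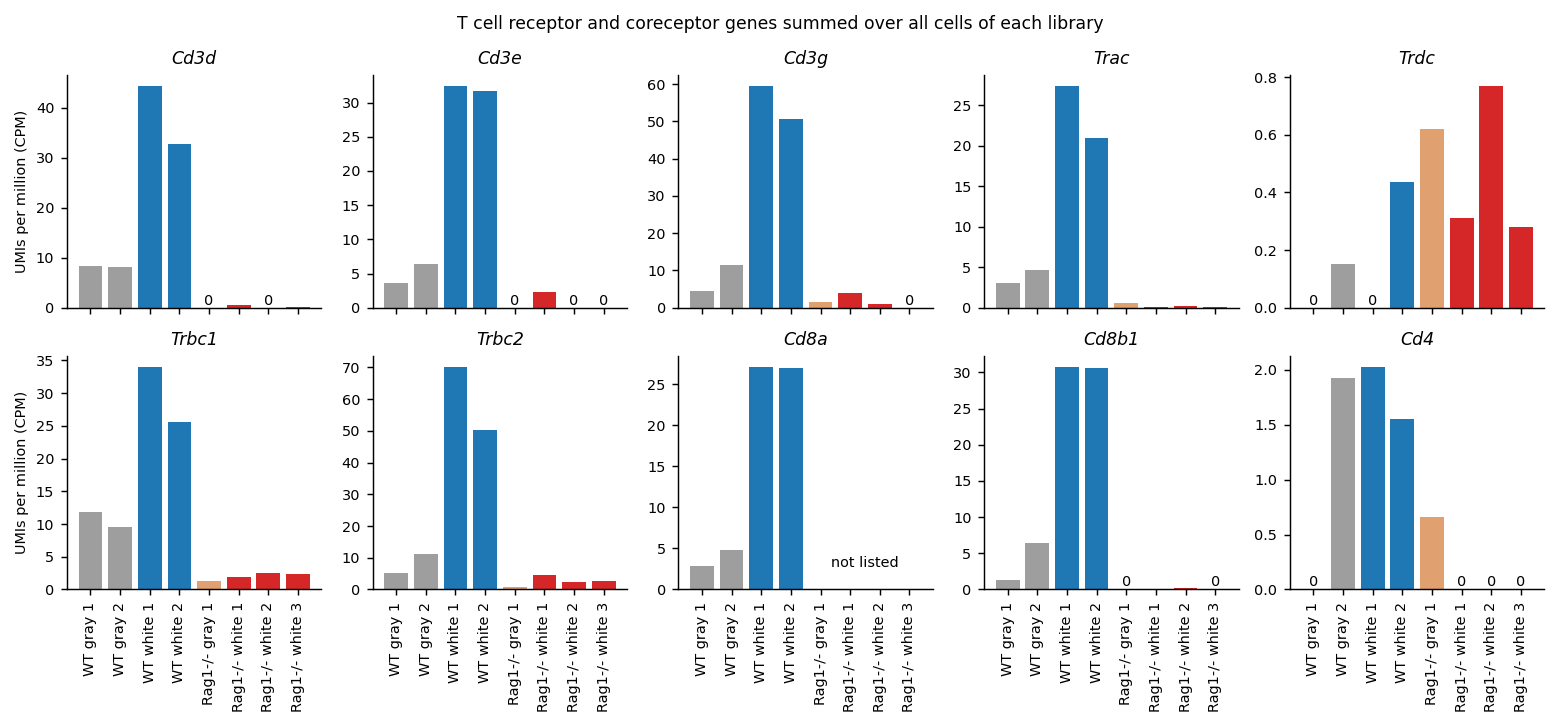
CPM (y axis, linear, a scale of its own for each gene) of the 10 genes, summed over all cells of each of the 8 libraries (x axis; WT, wild-type); a printed 0 marks a library in which the gene was listed without UMIs. The 2 wild-type white matter bars stand above every other library for all genes but Trdc and Cd4, and only Trbc1, Trbc2, Trdc and Trac have a bar in each Rag1-/- library.

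The summed level of the 10 genes was 328 and 271 CPM in wild-type white against 40.7 and 64.9 CPM in wild-type gray matter. In the edgeR fit to library sums, 3 of the 9 genes tested were higher in wild-type white than gray matter at an adjusted p under 0.05, where 1.1% of the 15657 genes tested passed and 0.434% were higher. Trbc2 rose by 2.91 ± 0.47 on the log2 scale (estimate ± SE, adjusted p = 0.0463), Trac by 2.70 ± 0.46 (adjusted p = 0.0485) and Trbc1 by 1.61 ± 0.24 (adjusted p = 0.0442). The median log2 fold change of the 9 genes was 2.71, against 0.016 for all genes. Cd8b1 (2.92 ± 0.69, adjusted p = 0.0970), Cd3g (2.81 ± 1.28, adjusted p = 0.312), Cd3e (2.72 ± 1.46, adjusted p = 0.381) and Cd3d (2.34 ± 0.66, adjusted p = 0.141) had similar estimates but did not pass, and neither did Trdc or Cd4. In wild-type libraries alone 6 of 8 genes passed, all higher, where 3.56% of all genes passed. With the shared mouse pool, which is also the batch, added as a block 7 of 8 passed, all higher. In that fit 12.9% of all genes passed and 4.48% were higher. The call rested on each library: with either gray or either white wild-type library left out, 0 of 9 genes passed in edgeR (4 or 5 at an unadjusted p under 0.05), as without Rag1-/- white matter library 3, whereas 1 passed without Rag1-/- white matter library 2 and 6 without library 1. Of all genes tested, 0 passed without each wild-type library (1529 to 2463 at an unadjusted p under 0.05) and 40 without Rag1-/- white matter library 3. The share of all genes that passed was 0.444% without Rag1-/- white matter library 2 and 7.98% without library 1.

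In Rag1-/- against wild-type white matter, 5 of the 9 genes were lower and none was higher, where 0.818% of all genes passed, 0.307% lower and 0.511% higher. The log2 fold change was -8.74 ± 0.81 for Cd8b1 (adjusted p = 0.00362), -7.66 ± 0.50 for Trac (adjusted p = 0.000682) and -6.99 ± 0.69 for Cd3d (adjusted p = 0.00443). It was -4.19 ± 0.41 for Trbc2 (adjusted p = 0.00419) and -3.71 ± 0.22 for Trbc1 (adjusted p = 0.000491). The beta constant regions thus retained 7.63% (Trbc1) and 5.47% (Trbc2) of their wild-type level in this fit, against 0.494% for Trac and 0.233% for Cd8b1. Cd3g (-4.99 ± 1.17, adjusted p = 0.184) and Cd3e (-5.25 ± 1.35, adjusted p = 0.225) did not pass, their Rag1-/- white matter libraries ranging from 0 to 3.90 CPM. Both rested on Rag1-/- white matter library 1. Without it Cd3g passed (-7.07, adjusted p = 0.0127) and Cd3e passed (adjusted p = 0.000348), with no fold change given since both other libraries listed Cd3e at 0, whereas neither gene passed in edgeR without any 1 of the other libraries (Cd3g -5.15 to -4.39, Cd3e -5.32 to -4.66). Cd4 did not pass either (adjusted p = 0.159), and Trdc had an estimate of 0.67 ± 1.04 (adjusted p = 0.870). Trdc rested on wild-type white matter library 2, the only 1 of that group with Trdc UMIs. Its estimate was 0.065 without wild-type white matter library 1 (adjusted p = 0.991) and 0.14 without Rag1-/- white matter library 2 (adjusted p = 0.992). With Cd8a added by setting genes that a table does not list to 0, 8 of 10 genes were lower, Cd8a among them. In that fit 7.55% of all genes passed and 2.52% were lower. The call of Cd8a followed from the 0 filled in for the Rag1-/- libraries, so it is no result about Cd8a. Cd3g and Cd4 passed in that fit (adjusted p = 0.0474 and 0.0366) at nearly the same unadjusted edgeR p as before. It was 0.00353 against 0.00336 for Cd3g, and 0.00257 against 0.00260 for Cd4. These 2 calls came with the changed set of genes adjusted over and add nothing about Cd3g or Cd4. No fold change is given for a gene that is not listed.

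**Figure D2:**
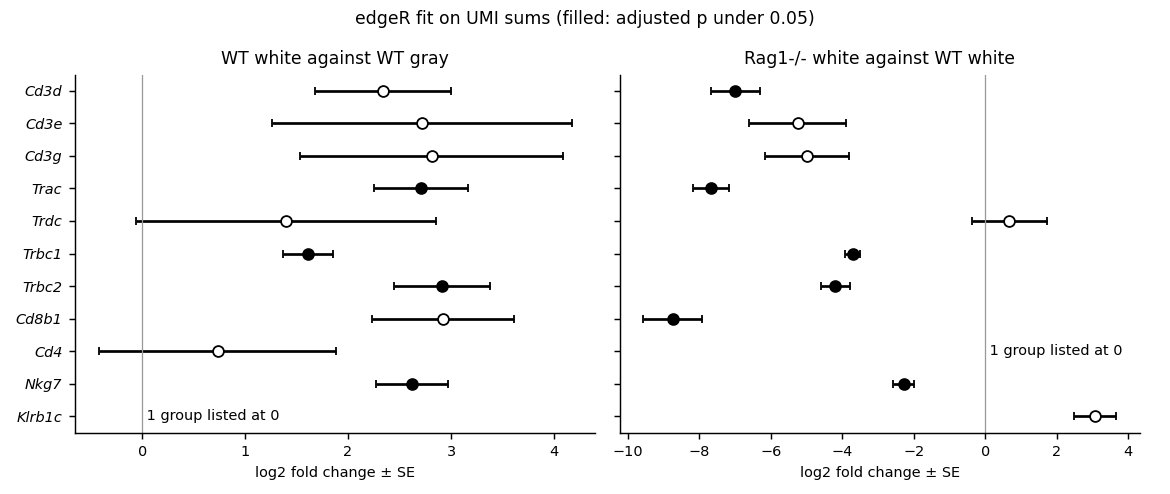
Log2 fold change with its SE (x axis) of 9 receptor and coreceptor genes and of Nkg7 and Klrb1c (y axis), for wild-type white against gray matter (left) and Rag1-/- against wild-type white matter (right); filled points passed an adjusted p of 0.05, and no point is drawn where a group was listed at 0. Most estimates at left lie between 1.39 and 2.92, and those at right separate Trbc1 and Trbc2 (-3.71 and -4.19) from Trac and Cd8b1 (-7.66 and -8.74).

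Other cell types also differed between these groups. The summed level of 4 astrocyte genes was 1415 and 1011 CPM in wild-type gray against 60.0 and 71.4 CPM in wild-type white, and 105 to 522 CPM in Rag1-/- white matter. That of 6 oligodendrocyte genes was 26607 to 27012 CPM, 32851 to 34947 CPM and 24038 to 35772 CPM in these groups, and that of 8 microglia and macrophage genes 7889 to 9387 CPM, 3347 to 6640 CPM and 4992 to 12126 CPM. Their part in the differences above was not tested.

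Cells with at least 1 UMI of Cd3d, Cd3e or Cd3g (Cd3-positive) made up 10.9% (95% Clopper-Pearson interval 8.99 to 13.1%; 102 of 934 cells) and 7.14% (6.47 to 7.86%; 383 of 5363) of wild-type white matter. In wild-type gray matter they made up 2.05% (1.07 to 3.56%; 12 of 584) and 1.36% (0.879 to 1.99%; 25 of 1845). In Rag1-/- mice they made up 0.158% of gray matter (6 of 3807) and 0.524% (40 of 7631), 0.136% (4 of 2944) and 0.0613% (4 of 6523) of white matter. Wild-type white matter exceeded gray matter 5.30-fold (9.03% ± 2.67 against 1.70% ± 0.495; SD, n = 2 each) and Rag1-/- white matter 37.6-fold (0.240% ± 0.249; n = 3), without overlap. Without Rag1-/- white matter library 1 the latter ratio was 91.6, and it was 27.4 to 45.4 when any other white matter library was left out. The ratio of 91.6 rested on 4 Cd3-positive cells in each of Rag1-/- white matter libraries 2 and 3. Cd3d and Cd3e in library 2, and Cd3e and Cd3g in library 3, were listed at 0 and may have been present in 1 or 2 cells. The exact two-sided permutation p-values were 0.333 and 0.1, the smallest that 2 against 2 and 2 against 3 libraries allow. All intervals of shares cover counting error only.

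Cd3 UMIs, nearly always 1 per cell, were also found in cells that the authors annotated as oligodendrocytes, in 26 of 494 (5.26%) and 38 of 4106 (0.925%) of those in wild-type white matter libraries 1 and 2. The median depth was 12070 and 10256 UMIs in these oligodendrocytes, against 9588 and 6955 UMIs in the Cd3-positive cells. At a threshold of 2 UMIs, 1 and 0 oligodendrocytes remained. With that threshold 5.67% and 6.19% of wild-type white and 0.514% and 1.25% of wild-type gray matter cells were Cd3-positive, so that white matter libraries 1 and 2 came closer to each other. Thinned to 1000 UMIs per cell, the shares were 5.68% and 5.81% in white matter against 0.540% and 1.00% in gray matter.

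**Figure D3:**
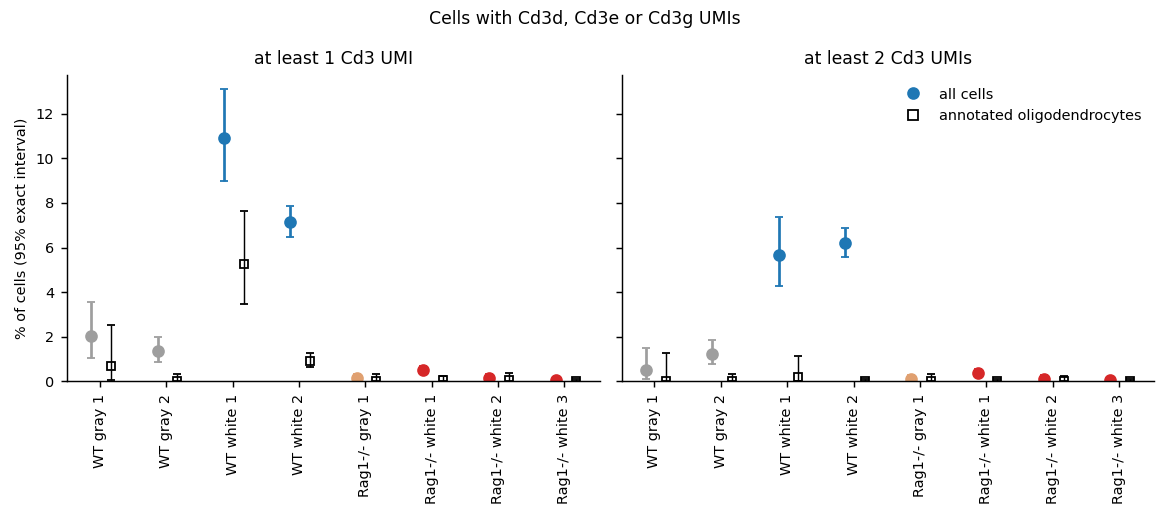
Share of cells with at least 1 (left) or at least 2 (right) UMIs of Cd3d, Cd3e and Cd3g (y axis, percent) in each library (x axis), with 95% exact intervals; filled circles are all cells and open squares the cells annotated as oligodendrocytes. At 1 UMI oligodendrocytes of wild-type white matter library 1 reach 5.26%, and at 2 UMIs only the wild-type white matter circles (5.67% and 6.19%) stand clear of the rest.

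The level per Cd3-positive cell was compared between tissues gene by gene. In cells with at least 2 Cd3 UMIs, Cd3g averaged 6.00 (3 cells) and 9.74 UMIs (23 cells) in the wild-type gray matter libraries, and 9.62 (53 cells) and 8.67 UMIs (332 cells) in the white matter libraries. Trbc2 averaged 7 and 9.57 UMIs in gray and 10.9 and 8.58 UMIs in white matter, and Trac 4.33 and 3.83 UMIs in gray and 4.45 and 3.58 UMIs in white matter. The gray and white matter values of Cd3g, Trbc2 and Trac overlapped. Trbc1 was the other way round from the library sums, at 12.3 and 8.13 UMIs per cell in gray and 5.36 and 4.31 UMIs in white matter, without overlap. The gray matter averages leaned on single cells. In gray matter library 1, 1 of the 3 cells held 32 of the 37 Trbc1 UMIs. In gray matter library 2, 1 of the 23 cells held 55 of the 187. Of the cells with at least 2 Cd3 UMIs, the 3 Cd3 genes were found together in 49 of 53 in wild-type white matter library 1 and in 314 of 332 in library 2, and Trac together with a beta chain in 48 and 305.

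CD8 cells outnumbered CD4 cells in each wild-type library. Of the Cd3-positive cells, 40 and 275 in the white matter libraries had Cd8a or Cd8b1 without Cd4, 9 and 34 had Cd4 alone, 1 and 1 had both, and 52 and 73 had neither. Of the cells with neither, 47 and 51 had a single Cd3 UMI. At 2 or more Cd3 UMIs 5 of 53 and 22 of 332 cells had neither. Cells with a single Cd3 UMI numbered 49 and 51 in the 2 libraries, and 25 and 38 of these were annotated as oligodendrocytes. The CD8 share of cells with 1 kind of coreceptor was 81.6% (68.0 to 91.2%) and 89.0% (85.0 to 92.3%) in white matter. In gray matter it was 100% (29.2 to 100%), from 3 cells, and 65.2% (42.7 to 83.6%), from 15 CD8 and 8 CD4 cells. The gray and white matter libraries overlapped (85.3% ± 5.21 against 82.6% ± 24.6; exact permutation p = 1). Cd8a and Cd8b1 were found in the same cell in 34 and 256 of the Cd3-positive white matter cells, against 7 and 20 with only 1 of them. None of the 54 Cd3-positive cells of the Rag1-/- libraries had a UMI of Cd8b1 or Cd4.

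**Figure D4:**
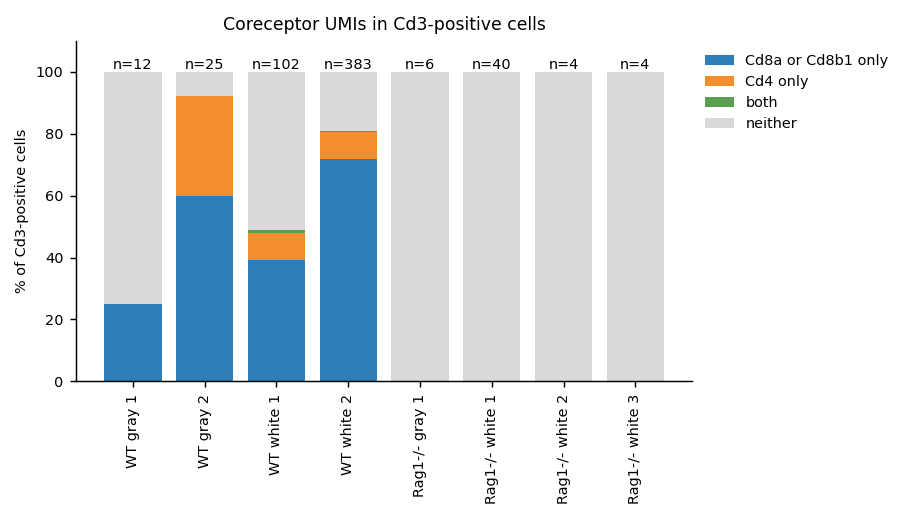
Share of Cd3-positive cells (y axis, percent; number of cells above each bar) with UMIs of CD8 genes only, Cd4 only, both or neither, in each library (x axis). Cells with CD8 genes only outnumber cells with Cd4 only in each wild-type library (275 against 34 in white matter library 2). In the wild-type libraries cells with neither mostly had a single Cd3 UMI (9 of 9 and 2 of 2 in gray, 47 of 52 and 51 of 73 in white matter). The Rag1-/- bars hold no cell with Cd8b1 or Cd4, where Cd8a was not listed. Of their cells, 2 of 6 in gray and 11 of 40, 1 of 4 and 1 of 4 in white matter had a single Cd3 UMI.

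Nkg7, a granule protein of cytotoxic lymphocytes, was found in 51 of 102 (50%) and 322 of 383 (84.1%) Cd3-positive cells of wild-type white matter, and in 3 of 12 and 21 of 25 of gray matter. At 2 or more Cd3 UMIs the white matter shares were 88.7% and 96.7% and the gray matter shares 100% and 91.3%, against 3.24% and 0.779% of white matter oligodendrocytes. Klrb1c, the NK1.1 antigen, was rare in the same cells: 1 of 102 and 3 of 383 in white and 0 of 37 in gray matter. The exact permutation test of white against gray matter gave p = 0.667 for Nkg7, whose libraries overlapped. For Klrb1c the gray matter cells were too few to compare at such a share, and at 2 or more Cd3 UMIs white matter library 1 was also at 0. Within wild-type white matter cells with 2 or more Cd3 UMIs, Nkg7 was found in 38 of 38 and 272 of 275 CD8 cells, and in 5 of 9 and 30 of 34 CD4 cells.

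The beta constant regions were detected unequally. Among Cd3-positive cells of white matter, 26 and 155 had Trbc2 alone, 0 and 8 had Trbc1 alone, 28 and 169 had both, and 48 and 51 had neither. Nearly all of the last had a single Cd3 UMI (47 and 49 cells), and at 2 or more Cd3 UMIs 1 of 53 and 2 of 332 cells had neither. Trbc1 made up 32.6% and 33.5% of the beta UMIs of these cells in white matter and 63.8% and 45.9% in gray matter. The gray matter shares came from 3 and 23 cells with beta UMIs, and 1 cell of library 1 had 32 Trbc1 and 7 Trbc2 UMIs. In cells with at least 5 beta UMIs, the Trbc1 share was at most 20% in 26 of 48 and 170 of 283 white matter cells, at least 80% in 2 and 25 cells, and between these bounds in 20 and 88 cells. In gray matter library 2 the Trbc1 share was at most 20% in 12 of 23 such cells, at least 80% in 2 and between in 9. Gray matter library 1 had only 2 such cells. A mixture of both constant regions was therefore common in single cells, and its basis was not tested.

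Variable segments had few UMIs, and the reason was not tested. The wild-type table listed 25 of them, most with under 20 UMIs, and the exception was Trgv2, a gamma chain segment (chr13:19336573-19337167, minus strand), with 458 UMIs in 169 cells, 168 of them Cd3-positive. In wild-type white matter Trgv2 was found in 18 of 38 (47.4%; 31.0 to 64.2%) and 134 of 275 (48.7%; 42.7 to 54.8%) CD8 cells with 2 or more Cd3 UMIs, against 0 of 9 (upper limit 33.6%) and 4 of 34 (11.8%; 3.30 to 27.5%) CD4 cells. In gray matter it was found in 5 of 15 CD8 and 0 of 8 CD4 cells of library 2. The CD8 share was thus above the CD4 share in each of the 3 libraries with both, and these libraries came from 2 pools of mice. Trdc was found in only 4 Cd3-positive wild-type cells, all in white matter library 2. Trgv2 was chosen for description after its values were seen.

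The 54 Cd3-positive cells of the Rag1-/- libraries carried other combinations of these genes. In white matter library 1, 20 cells had Cd3e, and of these 19 had Cd3g, 19 had Trbc2 and 11 had Trdc, while none had Trbc1 or Trac. Of the 20 cells, 19 also had Il7r, the interleukin-7 receptor, and 2 had Nkg7, 0 had Klrb1c and 3 had Cd3d. Among the 19 cells with Cd3e and Il7r, the gene most specific to them was Cd163l1, found in all 19 and in 1 further cell of the library. Il17re, a receptor chain for interleukin-17 family cytokines, was found in 12 and Il23r, the interleukin-23 receptor, in 8 of them, whereas none of the 75 NK-marked cells of that library had either gene. These cells came from 1 library, the only white matter library of its batch, and are given no cell type name here. Without that library, 8 Cd3-positive white matter cells remained in Rag1-/- mice.

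Of the other Rag1-/- Cd3-positive cells, 10 had Klrb1c or Ncr1, an activating NK cell receptor: 3 in gray matter, and 4, 2 and 1 in the white matter libraries. Nkg7 was found in 12 of the 54 cells. A further 5 cells of white matter library 1 had Il7r and Il1rl1, the interleukin-33 receptor, and 11 of the 54 lay among the glia annotated by the authors. In gray matter all 6 Cd3-positive cells had Cd3g alone among the Cd3 genes. Cd3d and Cd3e were listed at 0 in that library, where the gene filter may hide a gene present in 1 or 2 cells.

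Beta chain transcripts in Rag1-/- mice were found mainly in cells that carried NK cell genes and no Cd3. Cells without Cd3 UMIs that had at least 2 of the genes Nkg7, Klrb1c, Ncr1, Klre1, Gzma, Prf1 and Eomes (NK-marked) numbered 13 in Rag1-/- gray matter (0.341% of cells) and 75, 28 and 71 in the white matter libraries (0.983%, 0.951% and 1.09%). Trbc1 or Trbc2 was found in 61 of 75 (81.3%), 25 of 28 (89.3%) and 61 of 71 (85.9%) of those in white matter, a mean of 85.5% ± 3.99 (SD, n = 3), and in 9 of 13 (69.2%) in gray matter. In oligodendrocytes of the same 4 libraries the share was 0.0532% to 0.133%, at a median depth of 8669 to 12534.5 UMIs. Of the 129 Rag1-/- cells with Trbc1 and no Cd3, 117 were NK-marked, as were 97 of the 113 with Trbc2. In NK-marked cells Trbc1 was found in 62.7%, 71.4% and 59.2% and Trbc2 in 57.3%, 42.9% and 53.5% in the white matter libraries.

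The alpha chain was not seen in the same cells. Trac, which had UMIs in other cells of all 4 Rag1-/- libraries, was found in 0 of 187 NK-marked cells. With the cells of the 4 libraries pooled, the 95% Clopper-Pearson upper limit was 1.95%. It does not cover differences between libraries, and the libraries with 13 and 28 NK-marked cells alone would allow higher shares. Cd8b1 and Cd4, listed at 0 throughout 2 and 3 of these libraries, were also at 0 in the NK-marked cells. Trdc was found in 12 of the 187 cells (3 in gray matter, and 2, 5 and 2 in the white matter libraries). Trdv4, a variable segment upstream of Trdc (chr14:54074905-54075515, plus strand), was found in 44 (23.5%; 17.6 to 30.3%, pooled likewise). Its share by library was 19.7% to 38.5%. Trdv4 was the only variable segment listed in the Rag1-/- table, with 83 UMIs in 61 cells, of which 44 were NK-marked and 17 Cd3-positive. Nkg7 was found in 186, Klrb1c in 176 and Ncr1 in 171 of the 187 cells, all of which the definition draws on.

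Thinned to 1000 UMIs per cell, the beta chain share of NK-marked cells was 40.6%, 18.2% and 34.5% in white matter. Only 6 NK-marked cells were found in all wild-type libraries (3 with Trbc1 or Trbc2), so that no test between genotypes was made. The wild-type table listed 6 of the 7 genes, all but Ncr1. By these 6 genes alone, a definition set after this was seen, the wild-type count of 6 could not change, since it already rested on them. The Rag1-/- count stayed at 187. Of the 6 wild-type and 187 Rag1-/- cells, 3 and 156 had Trbc1 or Trbc2. Summed over all cells, Nkg7 was lower in Rag1-/- than in wild-type white matter (10.7, 18.7 and 16.7 against 81.5 and 69.2 CPM; log2 fold change -2.28 ± 0.29, adjusted p = 0.0156). Klrb1c was at 6.03, 5.51 and 6.38 CPM against 1.35 and 0.384 CPM without overlap, and did not pass (3.07 ± 0.59, adjusted p = 0.124).

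**Figure D5:**
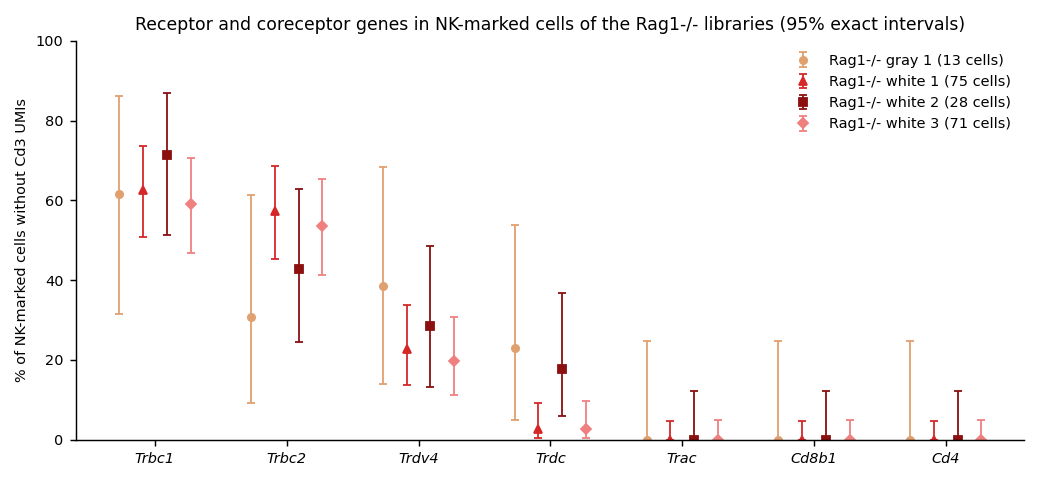
Share (y axis, percent, with 95% exact intervals) of NK-marked cells without Cd3 UMIs that carried each gene (x axis), with 1 symbol for each of the 4 Rag1-/- libraries. Trbc1 and Trbc2 reach 30.8% to 71.4%, Trdv4 19.7% to 38.5%, and Trac stays at 0 in all 4.

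The few Trac UMIs of Rag1-/- mice lay elsewhere. Of the 54 Cd3-positive cells of these mice, 3 had Trac. There was 1 in gray matter and 1 in white matter library 2, each also with a beta chain, and 1 in white matter library 1 without. Of the 23 Rag1-/- cells with Trac and no Cd3, 21 had at least 3 of the astrocyte genes Aqp4, Slc1a2, Gja1 and Aldoc, a definition set after these values were seen. Trac was found in 9 of 645 (1.40%) such cells in gray matter, with at most 2 UMIs per cell. In white matter it was found in 3 of 136 (2.21%), 6 of 219 (2.74%) and 3 of 375 (0.800%), with at most 1. The pooled upper limit given above for NK-marked cells lay within the range of these shares. Trac was found in 0 of 9379 oligodendrocytes of these libraries (upper exact limits per library 0.0980% to 0.349%), although their median depth was 8669 to 12534.5 UMIs against 2649 to 3689 in the astrocyte-marked cells. In wild-type gray matter Trac was likewise found in 1 of 63 and 4 of 187 astrocyte-marked cells and in 0 of 284 and 0 of 1119 oligodendrocytes. In wild-type white matter, of the 7 and 13 cells with Trac and no Cd3, 0 and 2 were astrocyte-marked. Astrocyte-marked cells were few there, and Trac was found in 0 of 6 (upper limit 45.9%) and 2 of 29 (6.90%; 0.846 to 22.8%). Their shares were therefore not shown to differ from those of the other libraries. Unlike in those, oligodendrocytes also had Trac, 4 of 494 and 7 of 4106. Trdc was found in 7 of 645 astrocyte-marked cells of Rag1-/- gray matter and in 0, 4 and 3 of those in the white matter libraries.

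Most cells with Cd4 UMIs and no Cd3 carried a macrophage gene. Of the 17 wild-type and 12 Rag1-/- cells with Cd4 and no Cd3, 14 and 11 had Mrc1, the mannose receptor of brain border macrophages, which was found in 0.133% and 0.149% of the oligodendrocytes of these genotypes. Of the Rag1-/- cells, 1 was annotated as an oligodendrocyte. All 12 lay in gray matter, where 4.10% of the annotated microglia had Mrc1. Of the 14 wild-type cells with Mrc1, 11 came from gray matter library 2. In wild-type gray matter library 2, 12 cells had Cd4 without Cd3 against 8 with it. The Cd4 level of that library is therefore not a measure of its CD4 T cells. In wild-type white matter only 1 of 11 and 4 of 39 cells with Cd4 had no Cd3.

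Genes of T cell receptor signaling and T cell identity outside the 10 genes followed them in part. Of 35 such genes 30 were tested, and 3 were higher in wild-type white than gray matter, beside 0.434% of all genes: Lck, the kinase that starts receptor signaling (18.1 and 17.3 CPM in white against 3.90 and 4.33 CPM in gray matter, scaled here to the genes of both tables; log2 fold change 2.21 ± 0.22, adjusted p = 0.0249), Bcl11b, a T cell transcription factor (2.35 ± 0.34, adjusted p = 0.0427), and Ptprcap (2.57 ± 0.38, adjusted p = 0.0442). In wild-type libraries alone 6 of 29 passed, beside 3.56% of all genes, and with the mouse pool added as a block 10 were higher and 2 lower, beside 4.48% and 8.44% of all genes in that blocked fit. Their median log2 fold change was 1.87. In Rag1-/- against wild-type white matter 9 of the 30 were lower and none higher, beside 0.307% lower and 0.511% higher among all genes, and their median was -2.04 against 0.026 for all genes. Lat, the adaptor that links the receptor to downstream signaling, had a log2 fold change of -3.55 ± 0.34 (adjusted p = 0.00362), Lck of -2.985 ± 0.19 (adjusted p = 0.000641), and Cd247, the zeta chain of the receptor complex, of -2.86 ± 0.38 (adjusted p = 0.0178). Cd247 remained at 0.751, 1.00 and 0.548 CPM in Rag1-/- white matter, and Lck at 2.29, 2.16 and 2.17 CPM. Tcf7, Cd2, Thy1, Skap1, Ptprcap and Ptpn22 made up the rest. These calls depended on single libraries. Between tissues 0 genes passed without any 1 of the wild-type libraries (edgeR; 8 to 15 at an unadjusted p under 0.05), 1 without Rag1-/- white matter library 2 or 3, and 10 without library 1. Between genotypes 2 and 4 passed without wild-type white matter library 1 or 2, 3 without Rag1-/- library 2 or 3, and 14 without library 1. Of all genes, 64 and 73, 75 and 85, and 438 passed between genotypes in those fits.

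The white minus gray difference itself was compared between genotypes. The edgeR fit called 0 of 9 receptor genes (2 at an unadjusted p under 0.05) and 0% of 15657 genes, whereas DESeq2 called 1 of the 9 (0.0447% of all genes). The 1 library of Rag1-/- gray matter was assumed to vary like the others.

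The genes detected most often in the same cells as Cd3 in wild-type white matter were ranked by the Jaccard index (cells with both over cells with either; the lower of the 2 libraries, 102 and 383 Cd3-positive cells). Gimap3 (0.491 and 0.800), Gimap4 (0.475 and 0.775) and Lck (0.459 and 0.771) led, followed by Ltb, Cd2, Ms4a4b, Ptprcap, Skap1, Gimap6 and Gimap7. For Trbc1 or Trbc2 without Cd3 in Rag1-/- white matter (73, 31 and 65 cells) Ncr1 led (0.648, 0.641 and 0.671), followed by Nkg7, Il2rb, Gimap4, Klrk1, Klrb1c, Gimap3, Cd7, Ms4a4b and Xcl1. Gimap3, Gimap4 and Ms4a4b stood in both lists.

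The Cd3 genes lie in 1 cluster on chromosome 9, and Cd3g and Cd3d are transcribed away from each other from start sites 1355 bases apart. Because Cd3-positive cells are defined by these genes, their promoters are shown from the RefSeq table (GRCm38.p6), from 250 bases before to 50 after the start, on the strand of the gene. Of the 10 genes, 4 had a promoter there. Capitals mark matches, on either strand, to the motif letters of 5 families of factors, each spelled out after the sequences. The windows are chr9:44981536-44981835 (Cd3d, plus strand), chr9:45009562-45009861 (Cd3e, minus strand) and chr9:44980382-44980681 (Cd3g, minus strand).
Cd3d: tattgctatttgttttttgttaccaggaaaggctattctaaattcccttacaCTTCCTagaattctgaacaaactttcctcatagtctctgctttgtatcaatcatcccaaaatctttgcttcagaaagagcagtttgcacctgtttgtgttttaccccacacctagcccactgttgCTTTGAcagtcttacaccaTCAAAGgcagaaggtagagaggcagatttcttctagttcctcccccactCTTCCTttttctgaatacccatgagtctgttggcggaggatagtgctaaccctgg
Cd3e: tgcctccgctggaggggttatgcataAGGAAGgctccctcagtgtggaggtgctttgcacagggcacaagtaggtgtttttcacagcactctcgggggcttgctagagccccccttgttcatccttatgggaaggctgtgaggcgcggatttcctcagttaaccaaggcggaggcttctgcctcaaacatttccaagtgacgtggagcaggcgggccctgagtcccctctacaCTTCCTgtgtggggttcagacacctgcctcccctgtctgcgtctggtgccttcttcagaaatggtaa
Cd3g: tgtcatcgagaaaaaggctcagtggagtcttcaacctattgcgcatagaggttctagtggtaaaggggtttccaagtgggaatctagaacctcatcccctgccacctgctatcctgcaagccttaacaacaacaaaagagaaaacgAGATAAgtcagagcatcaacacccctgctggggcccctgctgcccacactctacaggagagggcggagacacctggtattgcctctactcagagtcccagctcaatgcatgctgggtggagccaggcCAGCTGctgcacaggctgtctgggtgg
The ETS letters (AGGAAG) were found at 2 positions each in the Cd3d and Cd3e windows and at none in that of Cd3g, and 35.4% of 32841 promoters of this length held them. The TCF/LEF letters (CTTTGA) were found at 2 positions in Cd3d alone, and in 16.001% of all promoters. The GATA letters (AGATAA, 11.2% of all promoters) were found at 1 position in Cd3g. The E-box letters (CAGCTG, 16.3%) were likewise found at 1 position there. The RUNX letters (TGTGGT, 16.8%) were in none of the 3 windows. A match is a run of letters and not a bound site.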

How the data were processed

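Libraries were prepared from live brain cells with 3' v3.1 chemistry. The deposited tables hold raw UMI counts per gene and cell, which the authors made with Cell Ranger (versions that differ between experiments per the methods; 4 in the submitters' processing notes) on mm10, and filtered for genes in at least 3 cells and for cells by genes, UMIs and mitochondrial share. Cell labels for oligodendrocytes and microglia are the authors'. Doublets were not called here. Here counts were summed per library over all cells and the 17001 genes of both tables, and 15657 genes that passed filterByExpr were fitted with edgeR 4.0.16 (R 4.3.3, TMM, quasi-likelihood F test, 4 groups, Benjamini-Hochberg). The SE printed and drawn with edgeR log2 fold changes was derived from the test. It was the absolute log2 fold change over the square root of the F statistic, and is therefore approximate. DESeq2 1.42.0 was an alternative. Shares of cells were compared over libraries with exact two-sided permutation tests (SciPy 1.17.1 for intervals). P-values measure the spread between these libraries only. On data simulated for the white against gray matter comparison (15340 genes), 57.0% of 100 genes changed 4-fold and 9.28% of 97 changed 2-fold were called. Same-numbered wild-type gray and white matter libraries came from the same mice and the same batch. Their deviations from the group means correlated at r = 0.234 (Pearson, across 15657 genes). With 2 libraries per group both pairs give this value by construction, and gray library 1 with white library 2 gives -0.234. The correlation is thus 1 number and not agreement across separate pairs.

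The genes named were the 10 receptor genes, Nkg7, Klrb1c, Rag1 and up to 10 called signaling genes per comparison by fold change. Added to these were the 10 genes, outside the receptor genes, most often detected with Cd3 or with beta chains. Members, lists and tests were chosen with earlier results of these data known. Gene positions came from GENCODE M21 (GRCm38).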

Additional observations from a re-analysis of the deposited data

Results flagged for a closer look

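The white minus gray difference of Trac had opposite signs in the genotypes, where the Rag1-/- side rested on 1 gray matter library and few UMIs. There were 14 Trac UMIs in Rag1-/- gray matter and 5, 7 and 3 in Rag1-/- white matter. The 95% counting intervals of Rag1-/- gray matter (0.297 to 0.911 CPM) and white matter library 2 (0.103 to 0.530 CPM) overlapped. Both wild-type white matter libraries (27.4 and 20.99 CPM) lay above both gray matter libraries (3.01 and 4.71 CPM), and all 3 Rag1-/- white matter libraries (0.0864, 0.257 and 0.0560 CPM) lay below the single Rag1-/- gray matter library (0.543 CPM). The difference between the tissue effects was -4.84 ± 0.84 (SE) on the log2 scale in the edgeR fit across 15657 genes and did not pass (adjusted p = 0.99996). The Trac UMIs of the Rag1-/- libraries lay mostly in astrocyte-marked cells, and the summed level of 4 astrocyte genes was 1418 CPM in Rag1-/- gray and 105 to 522 CPM in Rag1-/- white matter. The part of these cells in the difference was not tested.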

How the results depend on the processing

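The number of genes called moved with the test and the libraries, while the direction of the receptor genes that passed did not. White against gray matter gave 172 genes of all tested in edgeR and 1162 in DESeq2, and 3 and 13 signaling genes. With the mouse pool as replicate block and wild-type libraries alone, 1747 genes, 7 receptor genes and 12 signaling genes passed, against 481, 6 and 6 without the block. Leaving out 1 library gave 0 to 1242 genes, 0 to 6 receptor genes and 0 to 10 signaling genes. Rag1-/- against wild-type white matter gave 128 genes in edgeR and 536 in DESeq2 (15 signaling genes). With unlisted genes at 0, 1292 genes passed (8 receptor and 17 signaling genes). For genes such as Cd8a, listed only for the wild-type, the direction of that call followed from the 0 filled in. Cd3g and Cd4 passed in that fit at nearly unchanged unadjusted p-values. With the batch number as replicate block 726 passed (8 and 16). The labels number batches within each genotype, so this block pairs wild-type and Rag1-/- libraries that share only a number. Leaving out 1 library gave 64 to 438 genes, 5 to 7 receptor genes and 2 to 14 signaling genes. The difference between genotypes gave 0 genes in edgeR (346 at an unadjusted p under 0.05), 7 in DESeq2 with 1 receptor gene, and 0 to 3 without 1 library.

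The CD8 share difference of white minus gray matter (2.71 points) ran from -14.7 to 20.1 when 1 library was left out, and was -14.7 with the second gray and -0.976 with the second white matter library omitted. The Nkg7 share difference (12.5 points) was -2.97 at 2 or more Cd3 UMIs, -17.0 with the first gray and -4.50 with the second white matter library omitted (range -17.0 to 42.0). The beta chain share of NK-marked cells (85.5%) was 31.1% after thinning. The cause of these changes was not tested, except that thinning leaves fewer UMIs per cell. The difference in Cd3-positive share was 5.44 to 9.22 points between tissues and 6.90 to 10.7 points between genotypes when 1 library was left out. It was 5.05 and 5.76 points at 2 or more Cd3 UMIs and 4.98 and 5.59 points after thinning. Only 2 libraries per wild-type group, and the gene filter of the tables, limit all values.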

Other observations

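In wild-type white matter library 2, 22 of the 332 cells with 2 or more Cd3 UMIs had neither Cd4 nor a CD8 gene, and of these 18 had Trac, 21 had Trbc2 and 1 had Trdc. Trgv2 was found in 4 of the 22 (18.2%; 95% Clopper-Pearson interval 5.19 to 40.3%). Nkg7 was found in 18 and Klrb1c in 1 of them. In white matter library 1 there were 5 such cells, 4 with Trac and 3 with Nkg7.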
